A study of Mus musculus with 9 samples.

Results

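The intronic circular RNAs of mouse bone marrow mesenchymal stem cells are described here. They were taken as every entry that the authors' circRNA tables give the type intron, which was 283 of 6614 circRNAs. The remaining entries were 6041 of exon type and 290 of intergenic type. The cells, adherent marrow cells able to turn into osteoblasts, were bought as a commercial stock and cultured for 7 days in 3 media, with 3 libraries of total RNA for each. PM was proliferation medium. OM was osteogenic medium, which holds dexamethasone at 100 nM, ascorbic acid at 0.2 mM and beta-glycerophosphate at 10 mM. C2S was osteogenic medium with the material labelled C2S, in a study whose title names dicalcium silicate, at a dose that the labels do not tie to the sequenced cultures. Nothing in the labels states that libraries of a group were separate cultures, so p-values here measure the spread between libraries, which may be technical.

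A circular RNA forms when the spliceosome joins the end of an exon back to the start of the same or an earlier exon, a step called back-splicing. An intron normally leaves the transcript as a lariat, a loop closed at the branch point that the enzyme Dbr1 opens for decay. The branch point lies upstream of the last base of the intron. Some introns persist as circles without exon sequence, and other circles keep both exon and intron sequence and are mostly found in the nucleus. Whether an entry of intron type is any of these depends on where its ends lie, so the ends of all 283 were first placed on the GENCODE annotation of the same build, mm10.

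The label intron covered several kinds of ends. Of the 283, 218 had 1 end at an annotated splice site and the other inside an intron, with 109 in each orientation. Another 24 had both ends in introns, 17 had an end only in a gene of the opposite strand, 8 had an end inside an exon, and 2 joined splice sites of 1 gene. The last 14 joined annotated splice sites of different genes. Among exon-type circRNAs, 5657 of 6041 (93.6%) had both ends at annotated splice sites of 1 gene. Of the 283, 31 overlapped no annotated exon on either strand. The median span between ends was 10044 bases, from 168 to 93793 bases, against 8590 bases for the exon type.

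Signal was spread over these kinds very unevenly. Values are RPM, the authors' back-splice reads scaled to the total of circRNA reads in a library (reads per M circRNA reads). The 14 circles with ends in different genes held on average 52.1% of all intron-type RPM, between 41.0% and 63.2% in single libraries. Those with an annotated 5′ end and an intronic 3′ end held 21.5%, and those with the opposite arrangement held 21.1%. Circles with both ends in introns held 3.13%.

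**Figure D1:**
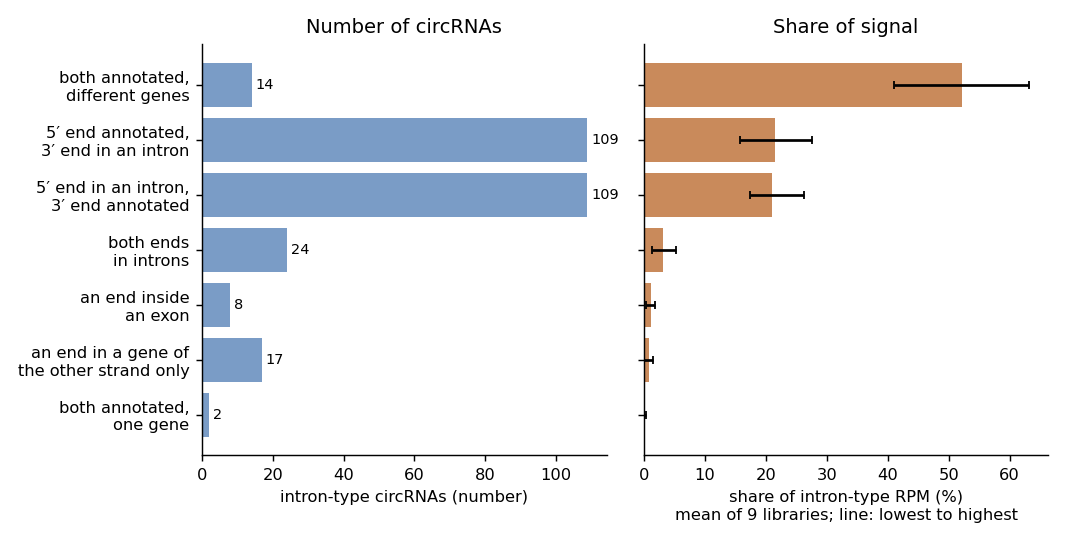
Intron-type circRNAs by the place of their ends. The left panel counts circRNAs and the right panel gives the share of intron-type RPM in percent, as the mean of 9 libraries with a line from the lowest to the highest library. The 14 circles with ends in different genes are few and hold the largest share, 52.1%.

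Depth limits every value below. Libraries held 13691 to 20769 circRNA reads, of which 432 to 787 lay in intron-type circRNAs, and each library listed 67 to 100 of the 283. The tables list nothing under 2 reads, so a circRNA without a value may have had up to 1 read or may have been missed, and its value was taken as 0. Of the 283, 132 were listed in 1 library only, 95 in 3 or more and 14 in all 9. Of 10 stromal markers, 9 were tested, and in OM against PM 1 rose and 6 fell, where 27.1% and 27.7% of all 13049 tested genes did. Ly6a, Itgb1 and Pdgfra had over 100 FPKM in all groups, while Eng went from a mean of 1.32 FPKM in PM to 0.833 in OM and 0.481 in C2S, Nt5e from 2.53 to 0.680 and 0.486, and Thy1 from 0.988 to 0.727 and 0.643. The 3 leukocyte and blood markers in the files summed to at most 0.0538 FPKM (a level per length and depth) in any library. Several marker lists moved with the media. Osteoblast markers summed to 23.3 to 31.7 FPKM in PM, 83.6 to 115 in OM and 178 to 232 in C2S, with Bglap, Sp7 and Ibsp near 0 throughout. Adipocyte markers summed to 2.41 to 2.70, 23.3 to 26.5 and 31.3 to 33.9 FPKM, and the 6 macrophage markers to 17.7 to 19.9, 26.6 to 32.2 and 37.3 to 44.1 FPKM. The macrophage sum followed Cd14, with means of 11.5, 27.4 and 37.4 FPKM, while Lyz2 fell from 4.04 in PM to 0.410 in OM and 0.549 in C2S, Cd68 fell from 3.19 to 2.03 and 1.73, and Adgre1 and Itgam were at or near 0. Their part in the results below was not tested.

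The sequences across the back-splice show what the circles with ends in different genes look like. Each was built from annotated transcripts as the last 30 bases of the exon at the 3′ end of the circle followed by the first 30 bases of the exon at its 5′ end. Each is set against the closest 60 bases of any annotated linear transcript. The sequences below are from GENCODE M21 on mm10, and capitals mark bases that differ from that linear transcript. A complete match means that the same 60 bases also occur in an ordinary linear transcript. The 7 of the 14 shown are those with the highest RPM whose 60 bases are all coding.
circ_33, Pnp2 exon 4 to Pnp exon 5, chr14:50950832-50963565 +: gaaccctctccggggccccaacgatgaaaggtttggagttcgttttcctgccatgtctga
circ_2386, Pnp2 exon 2 to Pnp exon 3, chr14:50950258-50959684 +: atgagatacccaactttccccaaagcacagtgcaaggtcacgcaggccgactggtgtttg
circ_1804, Mndal exon 4 to Ifi203 exon 4, chr1:173874351-173935177 -: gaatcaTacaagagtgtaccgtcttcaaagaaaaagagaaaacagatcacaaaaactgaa
circ_2201, Mndal exon 6 to Ifi211 exon 4, chr1:173871378-173905631 -: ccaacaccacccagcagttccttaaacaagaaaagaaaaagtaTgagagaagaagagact
circ_1796, Myl12b exon 3 to Myl12a exon 4, chr17:70975459-70994784 -: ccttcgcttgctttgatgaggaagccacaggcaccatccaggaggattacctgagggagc
circ_1085, Tnfrsf22 exon 4 to Tnfrsf23 exon 5, chr7:143640752-143670055 -: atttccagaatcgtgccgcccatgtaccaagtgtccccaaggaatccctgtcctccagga
circ_3449, Gbp10 exon 5 to Gbp6 exon 6, chr5:105224274-105277942 -: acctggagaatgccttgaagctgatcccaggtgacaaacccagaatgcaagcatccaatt

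Of the 14, 8 matched a linear transcript over all 60 bases and 11 matched with 3 mismatches or fewer. Those 11 held on average 99.6% of the RPM of the 14. Of 5657 exon-type circRNAs with both ends in 1 gene, 11 (0.194%) came that close, and the median was 20 mismatches. Intergenic-type circRNAs with ends in different genes resembled the 14, with 137 of 149 within 3 mismatches. Whether reads of linear RNA entered the values of these circles was not tested.

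**Figure D2:**
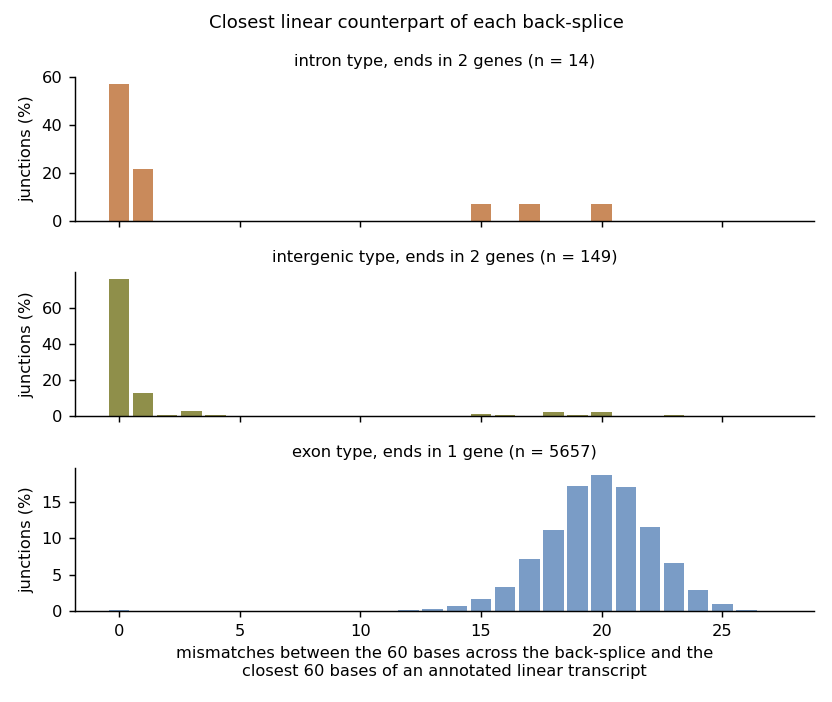
Mismatches between the 60 bases across each back-splice and the closest 60 bases of an annotated linear transcript, as percent of junctions in 3 sets. Most junctions between 2 genes sit at 0 or 1 mismatches, whereas the 5657 exon-type junctions within 1 gene centre on 20.

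The most abundant intron-type circRNA was circ_33 at chr14:50950832-50963565. It spans from an exon of Pnp, purine nucleoside phosphorylase, to an exon of its neighbour Pnp2, and alone held 25.3% of intron-type RPM. Its RPM was 9057, 8773 and 7133 in PM, 8137, 9360.5 and 7898 in OM, and 9550.4, 10093 and 10274 in C2S. All 3 C2S libraries lay above those of PM and OM, which overlapped each other. The difference of C2S from PM was 0.27 ± 0.10 (log2, standard error) and did not pass, with a limma adjusted p of 0.279. These values rest on 115 to 181 back-splice reads per library. The linear entries of the same locus were low, with Pnp at 0.573 to 1.26 FPKM, Pnp2 at 0.320 to 0.865 FPKM and the overlapping gene Gm49342, which the authors name as host, at 0.0453 to 0.235 FPKM. At the length of the longest annotated transcript, this amounts to at most 128 reads per library for Pnp and 45.9 for Pnp2. The lowest library of the circle, with 115 reads, lay above the highest of Pnp2 and below the highest of Pnp. Linear values of overlapping genes such as these are uncertain, so this does not show which kind of read was more frequent. The back-splice of circ_33 matched a linear transcript of Gm49342 with 0 mismatches. Where several genes matched equally, the lowest gene identifier was kept, so an equal match in Pnp or Pnp2 is possible. Whether reads of linear RNA entered the values of this circle was not tested.

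The second, circ_2029 at chr11:48992004-49059761, joins Tgtp1 and Tgtp2, which encode interferon-inducible GTPases. The deposited host, Olfr56, lies on the opposite strand. Its RPM was 3359.9, 3084 and 2171 in PM, 2552, 3085 and 3261 in OM, and 4579.7, 3289.8 and 4901 in C2S. The lowest C2S library was just above the highest OM library and below the highest PM library. In C2S against OM the log2 difference was 0.49 ± 0.18 and did not pass (limma adjusted p = 0.791). Linear Tgtp1 was 3.55 ± 0.918 FPKM (SD, n = 3) in PM, 6.72 ± 0.460 in OM and 10.1 ± 1.01 in C2S, and it rose in every comparison, with limma adjusted p of at most 0.0301. Linear Tgtp2 was 6.44 ± 0.904 FPKM for PM, 2.82 ± 0.296 in OM and 3.97 ± 0.872 in C2S, and it fell in both osteogenic media against PM.

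Several of these circles were listed at high values in some libraries and absent from others of the same group. circ_2386, the other Pnp2 to Pnp junction, had 5843 and 4404 RPM in PM, 4622 and 4535 in OM, and 5473 and 5373 in C2S. It was unlisted in replicate 2 of every group. circ_1796, between the genes of 2 myosin regulatory light chains, had 2504 and 2751 RPM in OM replicates 1 and 3 and 2289.9 in C2S replicate 1, and was unlisted in the other 6 libraries. The linear RNA of Myl12a and Myl12b stayed between 198 and 261 FPKM and between 129 and 154 FPKM, in libraries with and without the circle. circ_2201, the junction of Mndal and Ifi211, had 511 RPM in PM replicate 1, 471 and 408 in OM replicates 2 and 3, and 838, 725 and 709 in C2S, and was unlisted in the other 3 libraries. The junction of Tnfrsf22 and Tnfrsf23, decoy receptors for TRAIL, had 146 to 274 RPM in PM, 102 to 261 in OM and 390.3 to 413 in C2S, with no overlap between C2S and the others. Neither this junction, circ_1085, nor circ_2201 passed the limma test in any comparison. circ_3449, between genes of the interferon-inducible guanylate-binding proteins, was listed only in C2S replicates 2 and 3, at 948 and 1004 RPM.

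Such gaps were counted over all circRNAs, taking every library of a group whose remaining 2 libraries both held 10 reads or more of the circRNA. A value was missing in 6 of 59 such intron-type entries (10.2%), and all 6 belonged to circles with ends in different genes. The share was 2 of 1959 (0.102%) for exon-type and 30 of 447 (6.71%) for intergenic-type entries.

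**Figure D3:**
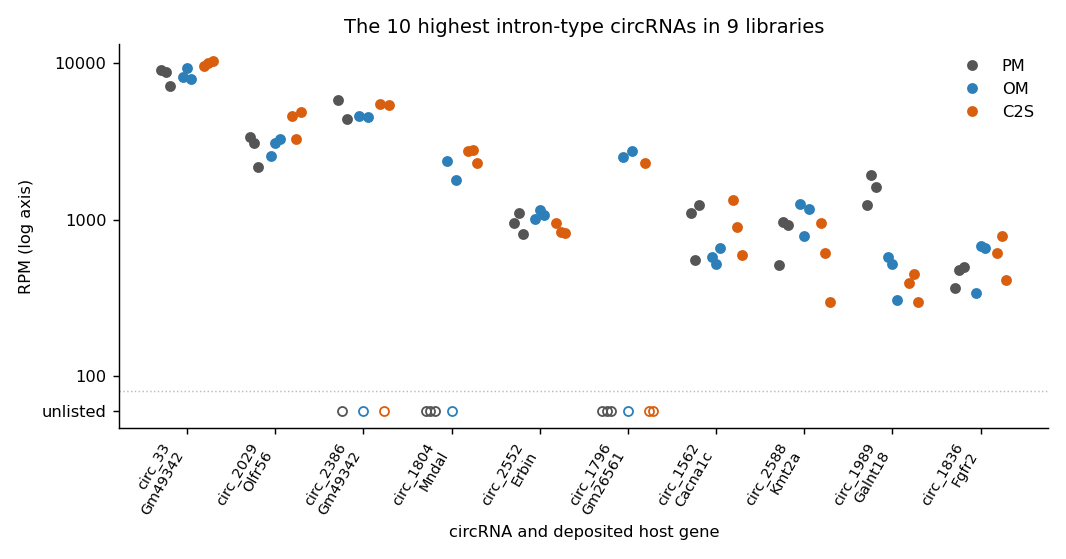
RPM on a log axis of the 10 intron-type circRNAs with the highest mean, in 3 libraries each of PM, OM and C2S. Open circles on the lowest line are unlisted libraries. circ_2386, circ_1804 and circ_1796 have gaps, and the Galnt18 circle is higher in all 3 PM libraries than in any other library.

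The 10 highest circRNAs held 52.8% to 65.7% of intron-type RPM, and 5 of them were circles with 1 annotated and 1 intronic end. The circle of Erbin, a scaffold protein that binds ERBB2, had 806 to 1097 RPM in PM, 1011 to 1150.5 in OM and 827 to 949 in C2S. Its intronic end lay in a 30960-base intron, and 1 exon-type circRNA with 698 RPM ended at the same annotated splice site. The circle of Kmt2a, a histone H3 lysine 4 methyltransferase, had 511 to 959 RPM in PM, 784 to 1252 in OM and 295 to 949 in C2S, and no exon-type circRNA used its annotated end. The circle of Zranb1, a deubiquitinase, had 365 to 496 RPM in PM, 337 to 679.8 in OM and 413 to 781 in C2S. The files name Fgfr2 as a second host of it. In each of these 3 circles the ranges of the groups overlapped, with the exception of Erbin in OM and C2S, and no comparison passed the test.

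The circle of Galnt18, a member of the family of transferases that start mucin-type O-glycosylation, passed the test in both comparisons with PM. This circle, circ_1989 at chr7:111597803-111599123, spans exon 3 of the gene and the first 1154 bases of the intron after it. That intron is 42427 bases long. Only the ends are known, so whether the circle keeps all sequence between them was not tested. The exon is coding, and its sequence in mm10, from chr7:111598957-111599123 on the minus strand, is the part of the span that the annotation of transcripts gives.
Galnt18 exon 3: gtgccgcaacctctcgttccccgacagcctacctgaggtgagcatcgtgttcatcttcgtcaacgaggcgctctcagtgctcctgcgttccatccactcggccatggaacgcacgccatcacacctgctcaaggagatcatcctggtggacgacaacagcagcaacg

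Its RPM was 1242, 1919 and 1613 in PM, 578, 523 and 306 in OM, and 391, 446 and 295 in C2S. Every PM library was above every OM and C2S library, and those of OM and C2S overlapped. The values rest on 17 to 28 reads in PM and 5 to 12 reads in the osteogenic media. On the log2(RPM + 111.7) scale it changed by -1.57 ± 0.28 in OM against PM (limma adjusted p = 0.0105) and by -1.79 ± 0.28 in C2S against PM (limma adjusted p = 0.00294). Without PM replicate 2 the limma adjusted p of OM against PM was 0.0663, the highest over its alternatives, which began at 0.00213. C2S and OM differed by -0.23 ± 0.28, which did not pass.

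The linear RNA of Galnt18 fell alongside, from 26.1, 26.0 and 25.7 FPKM in PM to 7.95, 8.51 and 8.02 in OM and 8.67, 8.51 and 9.62 in C2S. The log2 change was -1.56 ± 0.05 in OM against PM and -1.44 ± 0.05 in C2S against PM, with limma adjusted p of 2.22e-08 and 3.52e-08. Relative to its linear RNA the circle changed by -0.01 ± 0.37 and -0.35 ± 0.37, and neither passed (limma adjusted p = 0.995 and 0.749). The circle held 93.9% of the circRNA reads at its annotated end, with a mean of 812 RPM beside 52.4 RPM for the exon-type circRNA there. In bulk RNA, fewer cells that make a transcript and less of it per cell cannot be told apart.

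**Figure D4:**
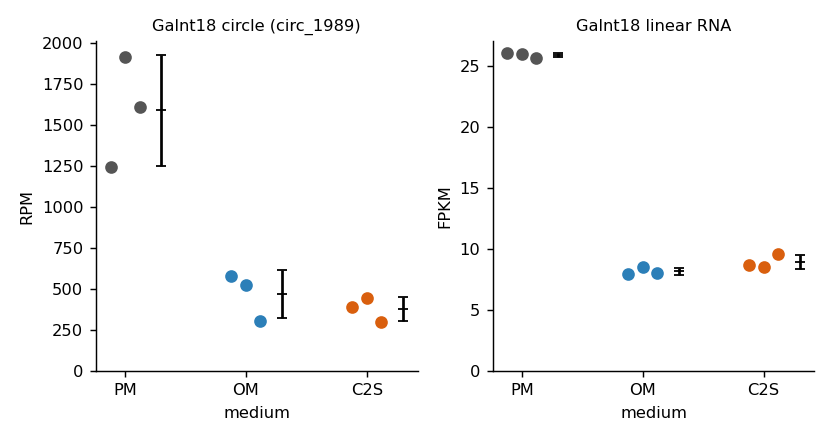
The Galnt18 circle in RPM (left) and Galnt18 linear RNA in FPKM (right) in the 3 libraries of each medium, with mean and SD beside the points. Both are higher in PM than in OM and C2S, where the linear means are 8.16 and 8.93 FPKM.

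Few other intron-type circRNAs passed the test. In OM against PM, 1 of 95 tested members passed at a limma adjusted p of 0.05, the Galnt18 circle, where 1.55% of all 2898 tested circRNAs did. In C2S against PM, 2 of 95 passed, where 1.66% of all did. In C2S against OM none of 95 passed and 0% of all circRNAs, with 7 of the 95 at an unadjusted p under 0.05. No count test was run. The median log2 difference over the 95 was 0.12 in OM against PM, -0.01 in C2S against OM and 0.10 in C2S against PM, beside 0.09, -0.04 and 0.01 over all tested circRNAs. The median standard error was 0.50, and a difference had to be several times its standard error to pass. In OM against PM, circ_1804 at 2.85 ± 0.81 did not pass (limma adjusted p = 0.0987).

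The second circRNA to pass in C2S against PM was circ_1804 at chr1:173874351-173935177, which joins Mndal and Ifi203, interferon-inducible genes of the PYHIN family. It was unlisted in all 3 PM libraries and in OM replicate 2, had 2359 and 1783 RPM in OM replicates 1 and 3, and 2737, 2788 and 2303 in C2S. With missing values taken as 0, the difference of C2S from PM passed (limma adjusted p = 0.00812). This circle is among the 6 gaps, missing in OM replicate 2 beside 49 and 35 reads in the other OM libraries, so a missing value of it sets no upper limit on its reads. Without C2S replicate 2 the limma adjusted p was 0.0615, the highest over its alternatives. Linear Mndal was 4.52 ± 1.08 FPKM (SD, n = 3) in PM, 4.55 ± 0.576 in OM and 6.96 ± 0.347 in C2S, and linear Ifi203 was 18.2 ± 4.05, 15.8 ± 1.02 and 26.3 ± 2.11 FPKM. Both rose in C2S, by 0.55 and 0.52 (log2) against PM, with limma adjusted p of 0.00839 and 0.00997. The back-splice differs from a linear junction at 1 of 60 bases.

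In C2S against OM the 3 smallest unadjusted p belonged to circ_711, circ_6572 and circ_2029, and none passed. circ_711, a circle of the transcription factor gene Foxp1, was unlisted in PM and OM and had 112, 112 and 118 RPM in C2S, which is 2 reads in each library. circ_6572, which joins the genes Zfp960 and BC002059 across Chd1, was listed in OM alone at 96.3, 209 and 102 RPM, or 2 to 4 reads. Both had a limma adjusted p of 0.504. The back-splice of circ_6572 matched a linear transcript of BC002059 over all 60 bases.

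The share of circRNA signal held by intron-type circRNAs overlapped between the 3 media. It was 4.04%, 3.25% and 3.37% of listed RPM in PM, 4.11%, 3.33% and 4.23% in OM, and 4.78%, 3.65% and 4.36% in C2S. The means were 3.55 ± 0.427% (SD, n = 3), 3.89 ± 0.490% and 4.26 ± 0.571%. Libraries of all groups overlapped, and 2-sided exact permutation tests gave p = 0.3 for OM against PM, 0.4 for C2S against OM and 0.2 for C2S against PM, with 0.1 the smallest p that 3 against 3 libraries allow. Replicate 2 was the lowest library in each group, and for each replicate number the order was PM, OM, C2S, though nothing in the labels says that a number marks libraries made together. Scaled to linear reads, the intron-type means were 14.9 in PM, 20.8 in OM and 20.7 in C2S (reads per M linear reads), with no overlap between C2S and PM (exact permutation p = 0.1, the smallest possible). Without the 14 circles between different genes the means were 1.90 ± 0.0440% in PM, 1.88 ± 0.0573% in OM and 1.73 ± 0.179% in C2S, so the order of the group means turned around (exact permutation p = 0.8, 0.3 and 0.4). Replicate 2 was then lowest only in OM, with 1.92% in PM beside 1.85% for replicate 3, and 1.66% in C2S beside 1.60%. For no replicate number was the order still PM, OM, C2S. Among the 14, circ_2386 was unlisted in replicate 2 of every group.

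**Figure D5:**
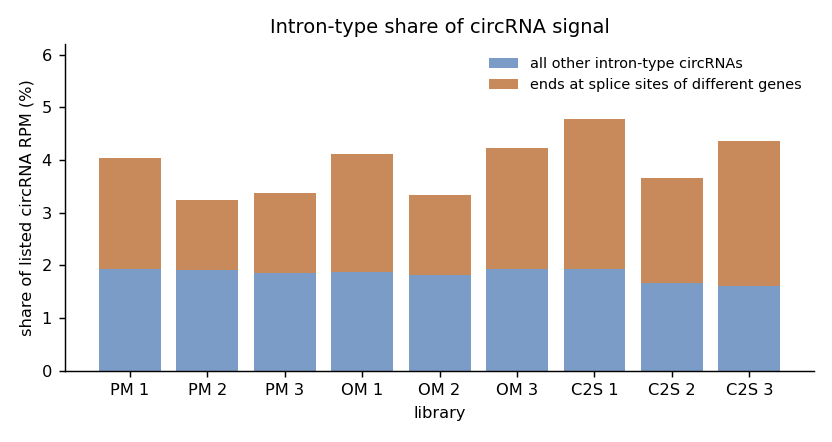
Intron-type share of listed circRNA RPM in percent for each of 9 libraries, split into circles with ends at splice sites of different genes and all others. The part held by all others lies between 1.60% and 1.94% in every library, and the part with ends in different genes is lowest in PM replicate 2.

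The 218 circles with 1 annotated and 1 intronic end had features in common. Among the 109 with an annotated 3′ end at an exon and an intronic 5′ end, and the 109 with the reverse, the annotated end was often at exon 2, in the transcript used for numbering. Where the annotated end was the start of the circle, it was the start of exon 2 in 66 of 109 (60.6%), against 35.6% of exon-type circRNAs. Where it was the end of the circle, it was the end of exon 2 in 33 of 109 (30.3%), against 3.69%. These 2 percentages do not compare like sets. An exon-type circle with 2 annotated ends cannot start at exon 1, so it ends at exon 2 only as that exon alone. A circle with an intronic 5′ end has no such limit. In 121 of the 218 the span between the ends held 1 annotated exon. The introns that held the other end were long, with a median of 48895 bases beside 1485 bases over all annotated introns. A long intron offers more places for an end, and the comparison took no account of this or of the host genes. Of 205 intronic ends that could be placed, 55 lay in intron 1 and 60 in intron 2. Those in intron 1 could only be 5′ ends of circles, since a circle with an intronic 3′ end starts at exon 2 or later. Of the 205, 7 were within 100 bases of an edge of the intron. The median distance to the nearer edge was 5952 bases.

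The intronic ends were seldom shared. The 218 circles used 210 distinct intronic ends, and none of these was an end of an exon-type circRNA. The definitions left little room for that, since 5657 of 6041 exon-type circRNAs had both ends at annotated splice sites of 1 gene. At the annotated end, 127 of the 218 met at least 1 exon-type circRNA, 91 did not, and 67 were the only circRNA there. The median circle held 31.7% of the RPM at its annotated end, and 97 were the highest there. An example listed in all 9 libraries with no exon-type circRNA at that end, chosen after its values were seen, is a circle of E2f5, a transcription factor of the cell cycle. It had 248 to 949.5 RPM in PM, 366 to 611 in OM and 279 to 503 in C2S, and its intronic end lay 12 bases into the intron. The groups overlapped.

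Some host genes produced many intronic circles around the same exon. Foxp1, with the overlapping Gm20696 as second deposited host, had 10, the most of any host entry, and 7 of the 10 had an end at 1 exon of 130 bases (chr6:99435216-99435345). Of these 7, 4 ran from that exon into the next intron and 3 ran from the intron before it to that exon. circ_768, from the exon to a point 6006 bases into the next intron, was highest, at 657, 411 and 372 RPM in PM, 96.3, 366 and 204 in OM, and 279, 335 and 177 in C2S. circ_2419, which ends 6427 bases into that intron, had 137 RPM in 1 PM library and none in the others, 105 to 255 in OM and 223 to 335 in C2S. Neither passed in any comparison. Linear Foxp1 was 19.7 ± 1.87 FPKM (PM, SD, n = 3) against 24.2 ± 2.44 in OM and 19.5 ± 0.933 in C2S, higher in OM than in both others (limma adjusted p = 0.0183 and 0.0397).

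Cacna1c, the pore subunit of an L-type calcium channel, had 6 intronic circles, and 4 of them started at exon 2 and ended at different points of intron 3. The highest, circ_1562, had 1096, 548 and 1240.5 RPM in PM, 578, 523 and 662 in OM, and 1340.4, 892 and 590.5 in C2S. These groups overlapped, and the exon-type circRNA at the same splice site had a mean of 3187 RPM. Linear Cacna1c was 4.26 to 7.50 FPKM over the 9 libraries.

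Farp1 had 5 intronic circles around exon 2. The 2 shortest began 471 and 321 bases before that exon. The longer of them, circ_642, had 438, 206 and 186 RPM in PM, 193, 157 and 306 in OM, and 223, 167 and 295 in C2S. Linear Farp1 fell from 37.4 ± 6.22 FPKM in PM (SD, n = 3) to 18.6 ± 2.75 in OM and 20.5 ± 3.66 in C2S, a log2 change of -0.96 ± 0.15 and -0.84 ± 0.15 (limma adjusted p = 0.000637 and 0.00136). The circle changed by -0.20 ± 0.40 and -0.15 ± 0.40. Relative to the linear RNA that is 0.76 ± 0.45 and 0.69 ± 0.45, which did not pass (limma adjusted p = 0.511 and 0.592).

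Glis3, a zinc finger transcription factor, and Pvt1, a long noncoding RNA, had 6 each, and Samd4, an RNA-binding repressor of translation, had 5. These 17 circles were listed in at most 5 libraries. The highest of Glis3, circ_6880, was listed at 219, 274 and 124 RPM in PM, at 261 in 1 OM library and in no C2S library, or 2 to 5 reads. In Samd4, 4 of 5 circles combined 2 starts with 2 ends, all inside introns. Of all 194 host entries, which name 203 genes, 148 had 1 intronic circle, 20 had 3 or more, and 143 (73.7%) also had an exon-type circRNA. Entries follow the deposited names, so Foxp1 without Gm20696, with 1 circle, is an entry of its own.

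A small set had the shape of a whole intron. Of the 283, 9 (3.18%) began at the first base of an annotated intron, against 6 of 6041 (0.0993%) exon-type circRNAs, and all 9 ended at the last base of that intron or 1 base before it. This set was chosen after its values were seen. They came from Hspa5, Pbrm1, Ddx31, Wac, Atp5a1, Iars, Lnpep, Mettl2 and Washc4, with spans of 293 to 1550 bases, and were listed in 1 to 3 libraries each. The highest, in intron 7 of Hspa5, the endoplasmic reticulum chaperone BiP, had 209 and 153 RPM in OM and 112 in C2S. Alone among the 9, this Hspa5 circle overlapped an annotated exon, and it was counted above with those that had an end inside an exon.

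The exon bases beside these introns are shown because AG and GT are also the letters that border an exon on its intron sides, before and after it. The 20 bases before and after each intron are given 5′ to 3′ as they are joined in the transcript (GENCODE M21, mm10), with the last 2 bases of the exon before and the first 2 of the exon after in capitals.
Hspa5 intron 7, chr2:34774773-34775065 +: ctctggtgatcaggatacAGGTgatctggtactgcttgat
Ddx31 intron 5, chr2:28847512-28848285 +: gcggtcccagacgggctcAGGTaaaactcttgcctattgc
Lnpep intron 17, chr17:17529881-17530476 -: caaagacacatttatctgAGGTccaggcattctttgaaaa
Pbrm1 intron 26, chr14:31106349-31107107 +: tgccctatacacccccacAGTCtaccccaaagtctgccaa
Iars intron 28, chr13:49726255-49727125 +: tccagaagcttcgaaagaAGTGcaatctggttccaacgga

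All 9 exons before ended in AG, as did 55.1% of exons before all 284220 annotated introns. In the 7 circles that reached the last base of the intron, the exon after began with GT in every case, where both AG and GT were found at 9.79% of annotated introns. In the 2 that stopped 1 base short, Pbrm1 and Iars, the exon after began with T. Whether the detection of circRNAs required AG and GT beside the ends of a circle is not stated. Such a rule would give every listed circle these letters, so the shares over all introns may be no like comparison.

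The factors that act on branch points and lariats were measured in the linear RNA. Of 22 such genes, all were tested, and in OM against PM 6 rose and 4 fell, where 27.1% of all 13049 tested genes rose and 27.7% fell. In C2S against PM 7 rose and 4 fell, where 27.6% and 28.4% did. In C2S against OM 1 rose and 1 fell, where 10.6% and 11.5% did. Dbr1, the debranching enzyme, was 12.9 ± 0.778 FPKM in PM (SD, n = 3) and 14.5 ± 0.740 in OM. It rose by 0.20 (log2) in C2S against PM, with a limma adjusted p of 0.0189. Dhx15, the helicase that takes the lariat spliceosome apart, was 69.4 ± 2.53, 68.3 ± 3.53 and 84.4 ± 1.17 FPKM. It rose in C2S against PM and OM (limma adjusted p = 0.000862 and 0.00295). Ptbp1, a splicing repressor that binds pyrimidine-rich introns, fell from 75.8 ± 6.69 FPKM in PM to 62.5 ± 3.21 in OM (limma adjusted p = 0.00829).

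Of 180 host genes tested, 107 passed in OM against PM, 37 in C2S against OM and 114 in C2S against PM, where 54.8%, 22% and 56% of all genes passed. In OM against PM 38 of the 180 hosts rose and 69 fell, where 27.1% and 27.7% of all genes did. In C2S against OM 23 rose and 14 fell, where 10.6% and 11.5% did, and in C2S against PM 51 rose and 63 fell, where 27.6% and 28.4% did. Their median log2 change was -0.08, 0.03 and -0.03 in the 3 comparisons, beside values within 0.01 of 0 over all genes. Circle relative to deposited host was tested for 77 members. The deposited host is not always a gene of the junction: it lay on the other strand for 20 of the 283, and circ_2029 was set against Olfr56 and circ_6572 against Chd1. None passed in OM against PM (12 at an unadjusted p under 0.05) or in C2S against OM (2 under it), where 0.446% and 0% of all 2690 pairs passed. In C2S against PM 1 passed, circ_1804, where 0.297% did (limma adjusted p = 0.0482, from 1.29e-05 to 0.235 over its alternatives). It did not pass without any 1 of the PM or C2S libraries.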

How the data were processed

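Total RNA of 9 libraries (3 each of PM, OM and C2S) was sequenced, and mm10 is the build, with STAR, RSEM and HTSeq as tools of unstated role and version, per the submitters' processing notes. The authors' circRNA values are in RPM: within a library all are multiples of 1 read, to a tolerance of 0.001 reads. Linear RNA in the deposited tables was read as FPKM, since its steps depend on gene length and the headers name no unit. Whether counting used strand is not given here, so values of antisense or overlapping genes, and of close paralogs such as Tgtp1 and Tgtp2, are uncertain.

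Ends were placed on GENCODE M21 (mm10), and back-splices were compared with its transcripts through shared stretches of 15 bases. Tests covered 2898 circRNAs with a value in 3 or more libraries, on log2(RPM + 111.7), with 111.7 as the middle one of the 9 libraries' smallest values, and 13049 genes that reached 1 FPKM in 3 or more, on log2(FPKM + 1). These scales understate changes of low values. The ratio is the difference of both. limma 3.58.1 (R 4.3.3, mean trend, all 9 libraries, Benjamini-Hochberg at 0.05) was checked on simulated data. These had little spread between libraries beyond the sampling of reads, left out the lowest circRNAs and had no gaps like those of circ_2386. They do not show how the test behaves in such cases. Shares were tested by exact permutation. Named were the 10 highest circRNAs, all that passed, the 3 smallest p where none passed, and all of the 6 hosts with most members. Circles with ends in different genes and whole introns were added after their values were seen. Members and lists were chosen with earlier results of these data known.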

Additional observations from a re-analysis of the deposited data

How the results depend on the processing

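Low read numbers limit the circles: most were unlisted in most libraries, and 1 read is worth 48.1 to 73.0 RPM. The number of members that passed was 0 to 3 with single libraries left out in OM against PM, 0 in C2S against OM and 1 to 3 in C2S against PM, against 1, 0 and 2 (0 without PM replicate 2 and 3 without OM replicate 2 in OM against PM, 1 without C2S replicate 2 in C2S against PM). Without a filter on low values it was 3, 3 and 6 of 283, where 79, 16 and 88 of all 6614 circRNAs passed. Among the members without any exon it was 0 in OM against PM and 0 in C2S against PM, with 6 tested, and among those listed in at least 6 libraries it was 1 in C2S against PM, where circ_1804 was not tested. Hosts that passed in C2S against OM were 22 without a filter and 18 to 36 with a library left out (21 without C2S replicate 2, 18 without C2S replicate 3), against 37; with single libraries left out they were 91 to 106 in OM against PM and 100 to 112 in C2S against PM. Circles relative to hosts that passed were 18 in OM against PM and 19 in C2S against PM of 77 with a pseudocount 4 times as large, where 413 and 455 of all 2690 pairs passed. In C2S against PM it was 0 with 0.25 times it, with 6 libraries required or with any library left out, and in OM against PM 0 to 1 with a library left out (1 without OM replicate 2). The difference in intron-type share turned negative in OM against PM (-0.00349 and -0.0141 percentage points), C2S against OM (-0.0150 and -0.148) and C2S against PM (-0.0185 and -0.163) among members without any exon and without circles between different genes, the latter chosen after seeing the data. In C2S against OM it was also -0.102 relative to linear reads and -0.247 as a share of listed circRNAs. Relative to linear reads the difference was 5.85 in OM against PM and 5.75 in C2S against PM (reads per M linear reads, exact permutation p = 0.2 and 0.1), and as a share of listed circRNAs 0.309 and 0.0621 (p = 0.1 and 0.9), with 0.1 the smallest p possible. With libraries left out it was 0.166 to 0.616, 0.0954 to 0.683 and 0.453 to 1.02. The causes were not tested. Scaling to linear reads moved the median of all circRNAs by 0.15, -0.06 and 0.10 (log2). Same-numbered libraries did not deviate together in every pair (r -0.0174 to 0.0348 for circRNAs and -0.0921 to 0.395 for genes, over 9 pairs), so the numbers were not taken to pair them. Libraries of different number had r of -0.0359 to 0.0324 for circRNAs and -0.469 to 0.187 for genes. For genes the highest values were thus among same-numbered pairs. With the replicate number as a block, 1, 0 and 2 members passed, 110, 43 and 118 hosts, and 0, 0 and 1 ratios. Count tests with edgeR and DESeq2 on reads worked out from the RPM steps were not run.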

Other observations

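Among circles with both ends inside introns, 4 members that overlapped no exon were listed in at least 5 libraries. They were chosen after their values were seen. The highest, in a 573-base stretch of Nfat5, a transcription factor of the response to osmotic stress, had 730.4, 685 and 186 RPM in PM, no value, 314 and 306 in OM, and 279, 335 and 531 in C2S. It was listed in 8 libraries, and its groups overlapped. A 427-base circle of the noncoding gene Gm36447 was listed in 6 libraries, at 157 to 241 RPM in OM, in 2 PM libraries at 438 and 206, and in 1 C2S library at 279.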
